A study of Triticum aestivum with 6 samples.

Results

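In wheat leaves, 235 genes that were already expressed at 23 °C had at least 10 times that level at 4 °C. They were chosen by the measured values themselves. A gene's level was the sum of FPKM (fragments per kilobase of transcript scaled by the number of mapped fragments) over its transcripts, and a gene entered when that sum was at least 1 FPKM at 23 °C, at 4 °C at least 10 times as high, and on average over both conditions under 1000 FPKM. Of the 99386 genes with an ID, 41734 had at least 1 FPKM at 23 °C and a mean under 1000 FPKM, and are called eligible below. Their 23 °C levels reached 1455 FPKM. Those with the highest 23 °C levels could not have entered, since a 10-fold higher 4 °C level would break the limit on the mean. The 235 genes make up 0.563% of eligible genes. Because the 4 °C and 23 °C values made the choice, the ratios below describe the genes and are not tested.

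The plants were bread wheat (Triticum aestivum), a hexaploid whose 3 subgenomes A, B and D carry related copies, called homoeologues, of most genes. Leaves were sampled from plants kept at 4 °C and labelled 4 weeks, and from plants kept at 23 °C and labelled 2 weeks, with 3 libraries for each temperature. Every plant is labelled with an 18:3 lipid phenotype, and each temperature had its own growth chamber under a photoperiod of 16 hours. The treatment label, which gives 2 weeks of cold, is the same on the samples of both temperatures. Temperature, chamber and labelled weeks differ together between the groups, so their parts in any difference cannot be told apart. The labels name no cultivar and do not say whether a library came from 1 plant or from pooled plants. The authors' table has 1 value per transcript and condition and none per library, so the spread between libraries is unknown, the depth is unknown, and no value below carries an error or a p-value. In whole leaves, more cells of a type and more RNA per cell also cannot be told apart.

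As background, cereals that stay in low, non-freezing temperatures acclimate: they become more tolerant of frost over days to weeks. Genes known to rise during acclimation in cereals encode dehydrins and other late embryogenesis abundant proteins, which protect cells that lose water, enzymes that make sugars and fructans, and CBF transcription factors, which switch on many cold-regulated genes. In wheat, frost resistance loci with clusters of CBF genes and a vernalization locus lie on the long arms of homoeologous group 5. None of the deposited gene IDs could be paired with a name: 0 of 99386 matched the table of RefSeq genes used here. The IDs show the chromosome arm alone, so whether any of the 235 genes is one of these known genes is not known here, no function or coordinate is given, and the labelled tissue could not be checked against leaf markers. For the same reason no sequence is shown.

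The 235 genes lay in the upper part of the expressed range at 4 °C and mostly in its lower part at 23 °C. Their levels at 4 °C ranged from 10.98 to 1003 FPKM with a median of 51.1, and at 23 °C from 1.003 to 81.6 FPKM with a median of 2.69. All eligible genes had medians of 4.84 FPKM at 4 °C, against 4.52 FPKM at 23 °C, so the median of the 235 genes was 10.6 times that of eligible genes at 4 °C and 0.595 times it at 23 °C. In order of abundance among all genes, their median rank was 2600 at 4 °C and 28599 at 23 °C. At 4 °C, 42 of them were among the 1000 most abundant genes, and at 23 °C none was, the highest having rank 1132. The rule asks for a 4 °C level at least 10 times that at 23 °C and a mean under 1000 FPKM. These medians and ranks therefore follow in part from the choice of the genes.

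**Figure D1:**
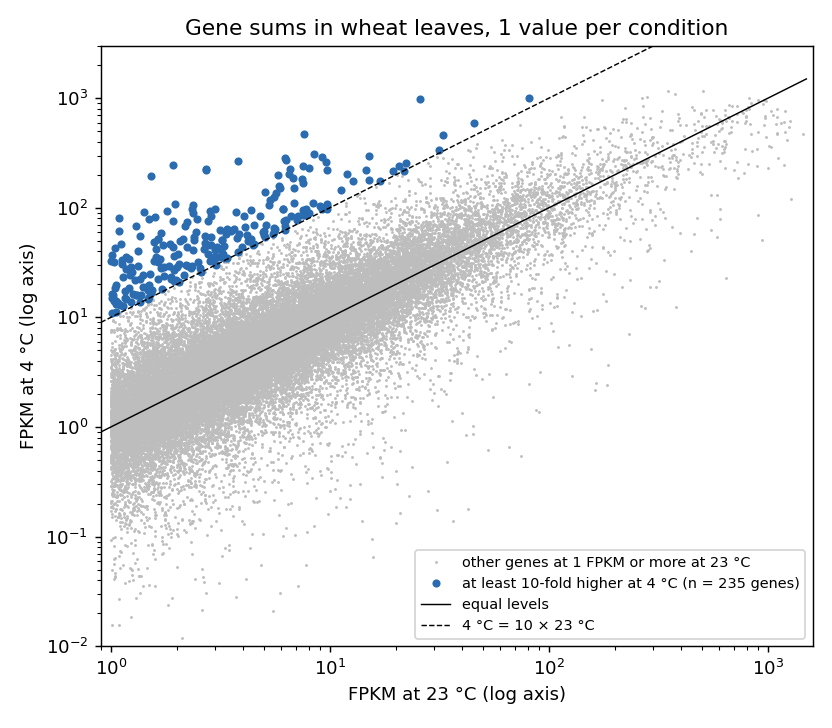
Level of each eligible gene at 4 °C (vertical axis, FPKM, log scale) against its level at 23 °C (horizontal axis, FPKM, log scale). The 235 blue points lie on or above the dashed 10-fold line by the rule that chose them, most of them at the low end of the 23 °C axis; 164 eligible genes under 0.01 FPKM at 4 °C fall below the plotted range.

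The ratio of 4 °C to 23 °C had a median of 15.8, with quartiles of 12.03 and 24.5. Ratios from 10 to under 15 were found for 110 genes, from 15 to under 20 for 39, from 20 to under 50 for 72, and of 50 or more for 14. The genes form the end of a continuous range. A level at 4 °C of 2-fold or more was seen for 5237 eligible genes, or 12.5%. At 5-fold this was 1.93%, at 20-fold 0.206% and at 50-fold 0.0335%. The gene just inside the limit, on 4BL, had 30.4 FPKM at 4 °C, against 3.03 FPKM at 23 °C, a ratio of 10.05. The one just outside it, on 4AL, had 47.7 FPKM at 4 °C, against 4.80 FPKM at 23 °C, a ratio of 9.95. There were 27 genes with a ratio of 10 to under 11 and 46 with a ratio of 9 to under 10, and without replicates it is unknown which of these would change sides in another experiment. The floor of 1 FPKM also fell within a dense stretch: among genes past the 10-fold limit, 18 had 1 to under 1.1 FPKM at 23 °C, and 16 had 0.9 to under 1 FPKM. One more gene, on 2AL, met both other conditions with 2313 FPKM at 4 °C, against 1.07 FPKM at 23 °C, and stayed out through the upper limit on the mean.

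Of all 235 genes, Traes_4AL_16456D1B6, on the long arm of chromosome 4A, had the highest ratio. It had 196.1 FPKM at 4 °C, against 1.52 FPKM at 23 °C, a ratio of 128.6, and stood at rank 585 at 4 °C against rank 36619 at 23 °C. All 4 of its transcripts were higher at 4 °C. A gene on 6AS was close behind, with 244.2 FPKM at 4 °C, 1.92 FPKM at 23 °C and a ratio of 127.5. Both ratios rest on 23 °C values close to the floor of 1 FPKM.

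The other 12 genes with a ratio of 50 or more were spread over several chromosomes. The long arms of group 5 held 1 each: the gene on 5AL had 469.6 FPKM at 4 °C, against 7.60 FPKM at 23 °C, that on 5DL 268.3 FPKM at 4 °C and 3.80 at 23 °C, and that on 5BL 220.0 FPKM at 4 °C and 2.71 at 23 °C. Whether these 3 are homoeologues cannot be read from the IDs. A gene on 3B had 225.5 FPKM at 4 °C, against 2.72 FPKM at 23 °C. The remaining 8 genes, on 1BL, 1DL, 2BL (with 2), 2DS, 6BS, 6DS and 7DS, had 61.8 to 108.7 FPKM at 4 °C and at most 1.96 FPKM at 23 °C. Their ratios, like those of the 4AL and 6AS genes, rest on 23 °C values close to the floor.

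The gene with the highest level at 4 °C was Traes_1AS_A4B0D42DF, on the short arm of chromosome 1A, with 1003 FPKM at 4 °C, against 81.6 FPKM at 23 °C, a ratio of 12.3. At rank 75 at 4 °C and rank 1132 at 23 °C, it led the 235 genes in abundance in both conditions. Of its 2 transcripts, the leading one had 916.7 FPKM at 4 °C, against 72.4 FPKM at 23 °C. A gene on 6DS came next, with 981.4 FPKM at 4 °C, against 25.9 FPKM at 23 °C, at a higher ratio of 37.8. A gene on 5DL had 593.5 FPKM at 4 °C, against 45.7 FPKM at 23 °C, over 26 transcripts.

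Few of the genes were well expressed at 23 °C. Of 10777 eligible genes that had 10 FPKM or more at 23 °C, 16 (0.148%) were at least 10-fold higher at 4 °C, with a median of 231.4 FPKM there and a median ratio of 12.6. Of these 16, only the gene on 6DS exceeded a ratio of 20. Eligible genes with the highest 23 °C levels could not meet the rule because of the limit on the mean, which lowers this share. The share was 0.598% among eligible genes with 5 to under 10 FPKM at 23 °C, 0.571% with 2 to under 5 FPKM, and 1.02% with 1 to under 2 FPKM. The lowest of these classes held 91 of the 235 genes. The levels at 4 °C followed those at 23 °C, with medians of 24.9 FPKM for genes that had 1 to under 2 FPKM at 23 °C, 49.7 FPKM for 2 to under 5, and 105.5 FPKM for 5 to under 10, as a rule on the ratio makes them do.

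**Figure D2:**
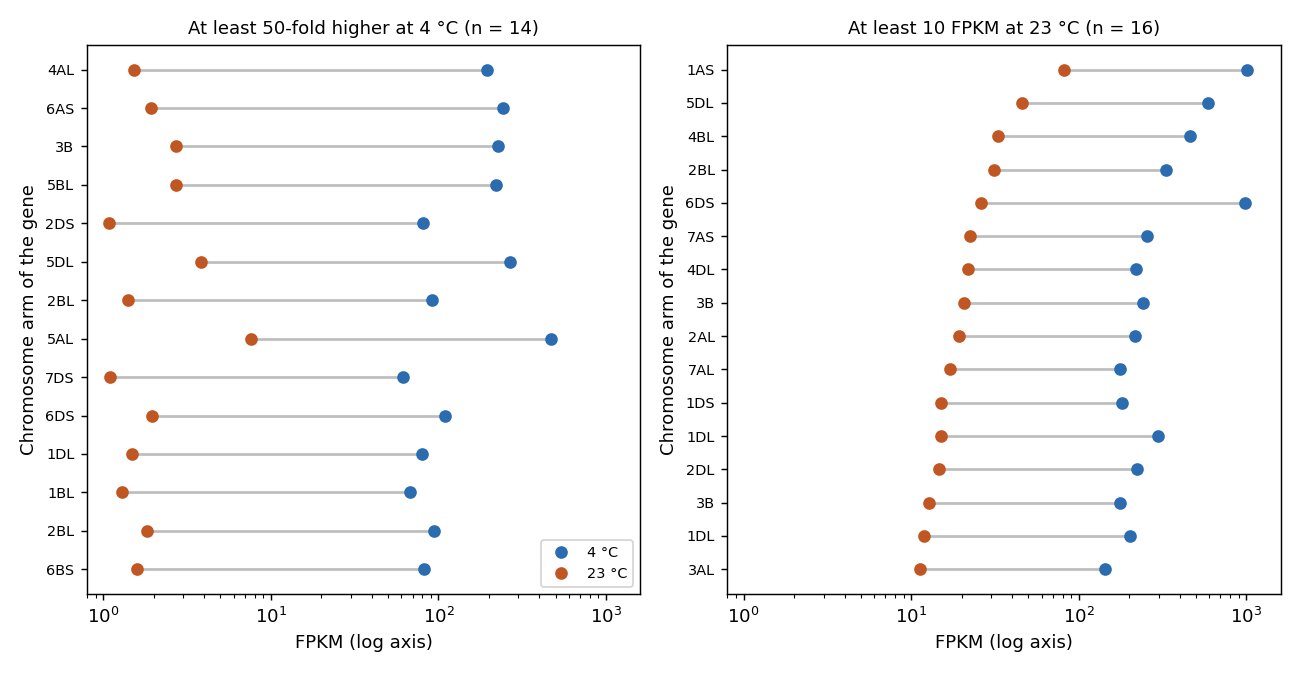
FPKM (log axis) at 4 °C (blue) and at 23 °C (orange) of the 14 genes with a ratio of 50 or more (left, ordered by ratio) and of the 16 genes that had 10 FPKM or more at 23 °C (right, ordered by that level), each named by its chromosome arm. On the left, 23 °C levels lie between 1.09 and 7.60 FPKM; on the right, the 6DS gene has the widest gap.

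Together the 235 genes accounted for 1.97% of the FPKM at 4 °C and for 0.111% of it at 23 °C. Their summed level was 20747 FPKM at 4 °C, against 1121 FPKM at 23 °C, a ratio of 18.5. A ratio above 10 follows from the rule. The 10 genes with the highest 4 °C level held 24.2% of the sum at 4 °C, and it took 35 genes to reach 50% of the sum at 4 °C. The leaf had 1223 genes at 100 FPKM or more at 4 °C, of which 51 belonged to this set, or 4.17%, and 7 of these 51 had under 5 FPKM at 23 °C.

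The mirrored rule found fewer genes. With at least 1 FPKM at 4 °C, a level at 23 °C at least 10 times as high and a mean under 1000 FPKM, 87 of 41909 genes were lower at 4 °C, which is 0.208%. At 2-fold, 7.16% were lower. The 235 higher genes were thus 2.70 times as many as the 87 lower ones, and as a set they held more FPKM where they were high. The lower genes together accounted for 0.0734% of the FPKM at 4 °C and for 1.16% of it at 23 °C. Higher genes made up 73.0% of both sets in the deposited values, 70.0% (212 higher and 91 lower) after median-of-ratios scaling, and 61.6% (183 higher and 114 lower) after quantile normalization, which gives both columns the same distribution. Median levels were alike in size, with medians for the lower genes of 2.91 FPKM at 4 °C, against 49.4 FPKM at 23 °C. The upper quartile of the lower genes at 23 °C, 160.8 FPKM, was above the 95.3 FPKM of the 235 genes at 4 °C. The largest ratio of 23 °C to 4 °C was that of Traes_1AL_A785A010E, with 2.40 FPKM at 4 °C, against 185.1 FPKM at 23 °C (77.2-fold lower at 4 °C). The highest 23 °C level was that of Traes_6BL_B48D251FF, with 119.5 FPKM at 4 °C, against 1276 FPKM at 23 °C.

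The 235 genes were divided over the subgenomes as the eligible genes were. A chromosomes carried 73 of them, B chromosomes 79 and D chromosomes 83, which is 0.566% of eligible A genes, 0.559% of B genes and 0.565% of D genes. Median levels were also close, at 51.6, 51.0 and 55.0 FPKM at 4 °C and at 2.56, 2.78 and 2.37 FPKM at 23 °C, for A, B and D. The summed level was less even: D genes held 42.1% of the sum at 4 °C, A genes 29.1% and B genes 28.7%. Single genes weigh in these sums. The highest gene on 6DS had 981.4 of the 8743 FPKM on D at 4 °C, and that on 1AS 1003 of the 6043 FPKM on A. The matching shares over eligible genes are not given here. At ratios of 20 or more, 37 of 86 genes (43.0%) were on D, against 35.2% of eligible genes. These were 32 of the 72 genes with a ratio of 20 to under 50, and 5 of the 14 with 50 or more. The mirrored rule gave 20 lower genes on D, 28 on A and 39 on B. These were 0.135%, 0.216% and 0.275% of the genes that met its conditions on level. Homoeologous group 1 alone held 25 of the lower genes (0.468%), and the split was not tested.

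Every one of the 21 chromosomes held some of the 235 genes, and 39 of the 41 arms did (chromosome 3B is not divided into arms in the IDs). The 2 arms with none were 5BS, with 510 eligible genes, and 6AL, with 224. The homoeologous groups lay between 0.474% of eligible genes in group 7 and 0.650% in group 5. On long arms 150 genes (0.603%) were found and on short arms 67 (0.466%). A read from one homoeologue can be counted for another, so the counts of arms within a group are not separate measurements.

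The long arm of 5B held the most genes, 23 of its 1849 eligible genes or 1.24%. Its homoeologous arms held fewer, with 8 genes (0.531%) on 5AL and 7 (0.414%) on 5DL. The levels of the 23 genes were ordinary for the set: they ranged from 11.1 to 263.8 FPKM at 4 °C and from 1.01 to 9.63 FPKM at 23 °C, with a median at 4 °C of 47.4 FPKM. The highest of them had 263.8 FPKM at 4 °C, against 9.63 FPKM at 23 °C. Without 5BL, B chromosomes held 56 genes, or 0.456% of their eligible genes, below the shares of A and D. With a floor of 5 FPKM at 23 °C, 6 genes of 5BL met the rule, or 0.715% against 0.349% over all arms, and 6 other arms had a higher share.

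After 5BL, the arms with the most genes were 3B with 18 (0.721%), and 3AL (1.004%) and 2DL (0.860%) with 14 each. In the same homoeologous groups, 3DL held 7 genes (0.529%), 2AL 8 (0.582%) and 2BL 7 (0.509%). On 6AS, 3 of 252 eligible genes gave 1.19%, a share that rests on those 3. The short arms of group 7 held 9 genes on 7DS (0.823%), 7 on 7AS (0.652%) and 2 on 7BS (0.268%), and 4AL held 5 (0.417%), against 0.563% over all arms.

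**Figure D3:**
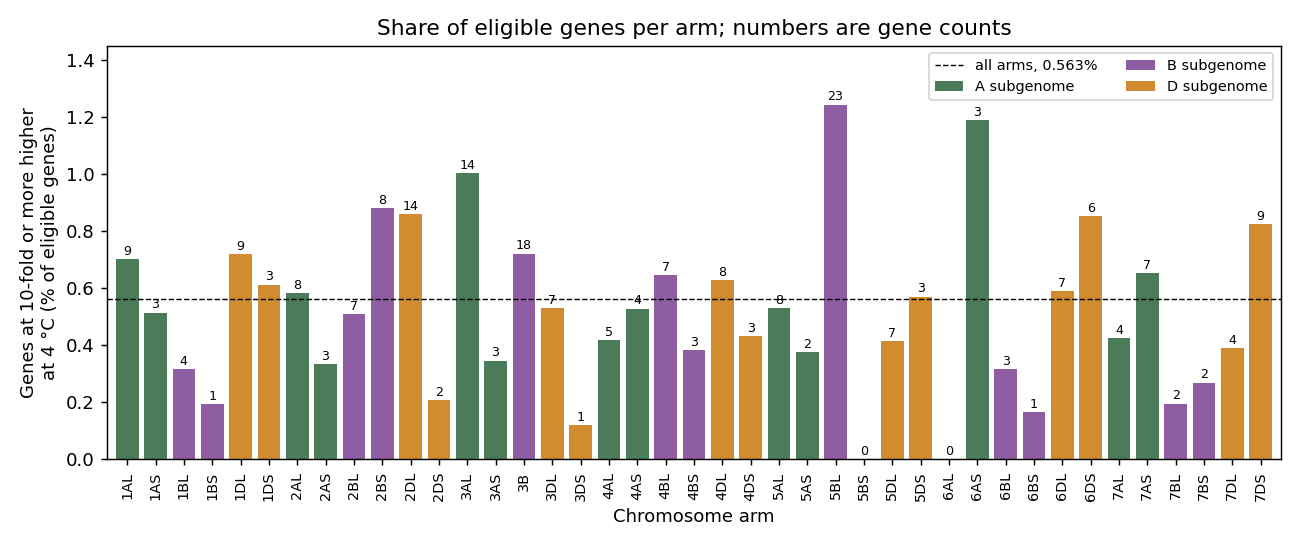
Genes at least 10-fold higher at 4 °C as a percentage of the eligible genes of each chromosome arm, coloured by subgenome, with the number of genes above each bar and the share over all arms (0.563%) dashed. 5BL stands highest with 23 genes, and the bar of 6AS rests on 3.

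A related set is formed by genes that had 10 FPKM or more at 4 °C but were below the floor of 1 FPKM at 23 °C, with a mean under 1000 FPKM. There were 249 of these among 57564 genes below the floor (0.433%), and their median at 4 °C was 20.2 FPKM, against 51.1 FPKM for the 235 genes expressed at both temperatures. The rules ask for unlike 4 °C levels: 10 FPKM here, and 10 times the 23 °C level for the 235 genes. The gap between the medians follows in part from that. By subgenome they were 82 A genes (0.428% of the A genes below the floor), 82 B genes (0.409%) and 85 D genes (0.463%). On 5BL, 1.24% of eligible genes belonged to the 235-gene set, and 13 genes, or 0.481% of those below the floor, to this related set. On 4AL these shares were 0.417% and 0.718% (14 genes). The shares were not tested against each other.

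Transcript numbers in the table run through 1 arm after another, and gene IDs next to each other in this order may or may not be neighbours on a chromosome. In this order 3 pairs of the 235 genes stood side by side. The pair on 1DL had 220.1 and 242.3 FPKM at 4 °C, against 9.69 and 7.55 FPKM at 23 °C. The pair on 5AL had 137.5 and 186.9 FPKM at 4 °C, against 5.69 and 6.79 FPKM at 23 °C. The pair on 7DS had 34.0 and 15.2 FPKM at 4 °C, against 1.68 and 1.01 FPKM at 23 °C. Genes were placed by their lowest transcript number, and the 3 transcripts of the second 7DS gene run from number 432437 to 437747. The partners of a pair had similar levels on 1DL and 5AL and differed by 2.24 times at 4 °C on 7DS; whether they are copies or pieces of 1 gene is not known here. On 5BL, only 1 pair of genes lay within 10 gene IDs of each other, so its 23 genes did not stand in a single run.

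The 235 genes had fewer transcripts per gene than eligible genes. They had 1 to 29 transcripts with a median of 2, and 91 of them (38.7%) had a single one. Eligible genes had a median of 4, and 21.3% had a single one. The share was higher in the 235-gene set at each of the mean levels compared: with a mean over both conditions of 5 to under 20 FPKM the shares with a single transcript were 33.3% of the 235-gene set and 18.6% of eligible genes, with 20 to under 50 FPKM 36 of 90 and 21.6%, and with 50 FPKM or more 44.8% and 24.1%. Of the lower genes of the mirrored rule, 40.2% had a single transcript. With a mean of 5 to under 20 FPKM this was 45.9% (17 of 37), and with 20 to under 50 FPKM 52.6% (10 of 19). Both shares were above those of the 235-gene set. At a mean of 50 FPKM or more it was 25.8% (8 of 31), close to the 24.1% of eligible genes. Of the 249 genes below the floor at 23 °C, 41.4% had a single one. The mean of a gene in the 235-gene set comes mostly from its 4 °C level, so these classes do not match the genes in level at each temperature. The number of transcripts was not part of the rule, but gene length and exon number, which bear on it, were not used here, and no test was made.

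In most of the 144 genes with several transcripts, the same transcript led, with the most FPKM of the gene, at both temperatures. The transcript with the most FPKM was the same one in 109 of them, and another one in 35 (24.3%). Among eligible genes with several transcripts it was another one in 19.4%. Where the leader held at least 60% of the gene's sum at each temperature, it was another one in 3 of 78 genes of the set (3.85%) and in 1.99% of 16600 eligible genes. With a floor of 5 FPKM at 23 °C the share in the set was 16.2%. The leading transcript held a median of 72.5% of the gene's sum at 4 °C and 70.9% at 23 °C. The transcript that led at 23 °C was itself at least 10-fold higher at 4 °C in 116 genes, 2- to under 10-fold higher in 17, and under 2-fold higher or lower in 11. Where the same transcript led at both temperatures with most of the sum, a ratio near that of the gene follows from the rule. Reads that fit several transcripts of a gene have to be apportioned between them, and the deposited values carry no error of that step.

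Most transcripts of these 144 genes were higher at 4 °C. Of their 365 transcripts that averaged 1 FPKM or more, 360 (98.6%) were higher at 4 °C, against 56.3% among eligible genes with several transcripts. In 140 of the 144 genes (97.2%) all such transcripts were, against 44.9% of those eligible genes that had such transcripts. Counting every transcript above 0 at either temperature, 593 of 703 (84.4%) were higher, against 50.1% among those eligible genes. All were higher in 84 genes (58.3%), against 14.7% of those eligible genes. Higher values of the abundant transcripts follow from the rule, which sums them. The limit of 1 FPKM on the mean adds to this. A lower transcript passes that limit only with at least 1 FPKM at the warmer temperature, where the whole set had a median sum of 2.69 FPKM. Of the 110 lower transcripts, 5 averaged 1 FPKM or more. The 98.6% and 97.2% are thus largely set by the rule and the limit. Their distance from the shares of eligible genes cannot be read as a separate result.

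In 11 genes, by contrast, the transcript that led at 23 °C took little or no part. All 11 had another leading transcript at 4 °C, and in 9 of them that 23 °C leader was lower at 4 °C. In a gene on 4BL with 2 transcripts, one had 75.9 FPKM at 4 °C, against 0.183 FPKM at 23 °C, while the other had 0.0873 FPKM at 4 °C, against 6.02 FPKM at 23 °C. The 3B gene with a ratio of 83.0 had a transcript with 219.9 FPKM at 4 °C that was listed at 0 at 23 °C, and its 23 °C leader had 2.46 FPKM at 4 °C, against 1.69 FPKM at 23 °C. A gene on 5BL had a transcript with 198.2 FPKM at 4 °C, against 1.39 FPKM at 23 °C, beside a 23 °C leader with 0.936 FPKM at 4 °C and 2.35 at 23 °C. In these 3 genes, picked here as examples, the transcript with most of the level at 4 °C was not the one that led at 23 °C. Others of the 11 were less clear: in a 5BL gene with 12 transcripts, the 4 °C leader had 2.12 FPKM at 23 °C, near the 2.49 FPKM of the 23 °C leader. In 3 of the 144 genes the transcript that led at 4 °C was listed at 0 at 23 °C, a value that may stand for a failed estimate, and no fold is given for it.

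**Figure D4:**
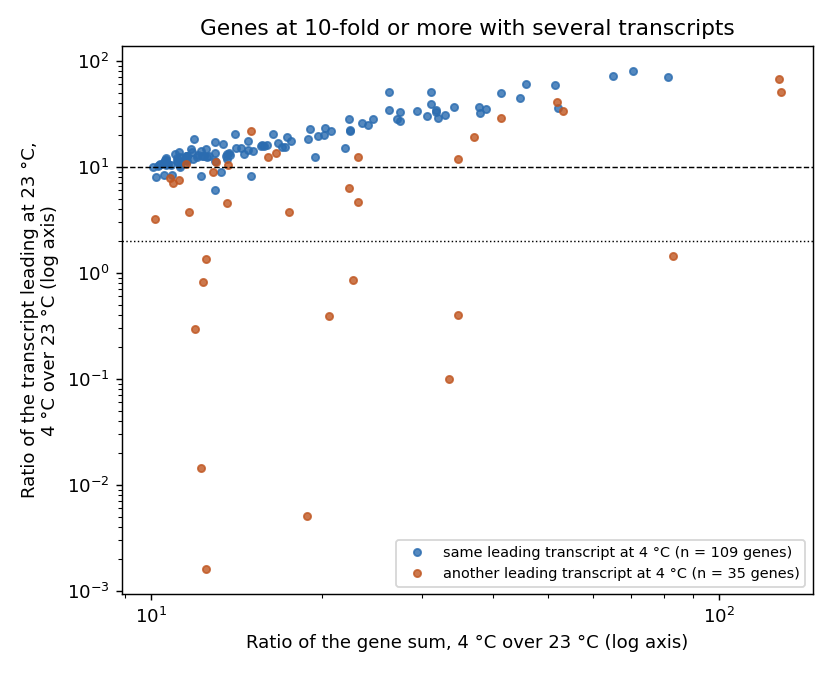
Ratio of 4 °C to 23 °C of the transcript that led at 23 °C (vertical axis, log scale) against the ratio of the gene's sum (horizontal axis, log scale) for the 144 genes with several transcripts. The 109 genes with the same leading transcript at both temperatures (blue) all lie at 6.10-fold or above, most of them above the dashed line at 10-fold. The rule on the gene's sum largely makes them do so. Of the 35 with another leading transcript (orange), 11 lie under the dotted line at 2-fold.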

How the data were processed

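Leaf RNA was isolated with a Qiagen plant kit and turned into libraries by Illumina TruSeq chemistry, per the labels' protocols. The submitters' processing notes name Cuffdiff 2.1.1 and Cufflinks 2.1.1, STAR 2.3.0e, Trimmomatic 0.30 and CASAVA 1.8.2. Their roles, the build and the gene models were not given in the sources used here, nor was the way in which libraries were combined into a condition. The authors deposited FPKM values of 442311 transcripts, 384429 of them with a gene ID. Per the file headers the value columns are control and cold; cold was taken as the 4 °C condition, the lower temperature in the labels, and control as 23 °C.

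Values were summed per gene ID with pandas 2.3.3 (Python 3.11.15), and the rule was applied to the sums without a pseudocount, as a ratio of 4 °C to 23 °C. Arm and subgenome were read from the ID. IDs were looked up in RefSeq genes of the assembly IWGSC CS RefSeq v2.1. The step that applies the rule was checked on simulated data. The genes and comparisons were chosen with earlier results of these data known. By rule, the IDs printed are the members with the largest ratio and with the highest 4 °C level, and likewise for the mirrored rule; other genes are given by arm. Alternatives were other folds, floors and upper limits, a pseudocount, scalings of the columns, and the leading transcript alone; normalization between the columns is the authors' own and its effect is given with the alternatives.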

Additional observations from a re-analysis of the deposited data

Results flagged for a closer look

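Transcripts with no gene ID were outside the comparisons of genes above, though their FPKM is part of the totals behind the shares of all FPKM. Some of these transcripts differed as much. Under the same rule, 78 of 18857 such transcripts (0.414%) were at least 10-fold higher at 4 °C, with medians of 44.0 FPKM at 4 °C and 2.21 FPKM at 23 °C and a highest 4 °C level of 1780 FPKM. Under the mirrored rule, 73 of 16076 (0.454%) were at least 10-fold lower, so the numbers in the 2 directions were close, unlike the 235 and 87 among genes. Single transcripts are compared here and sums over transcripts above, and the difference between the classes was not tested.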

How the results depend on the processing

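No paired analysis was possible because no library has a column of its own, so that no replicate could be left out either. Depth is unknown, so it cannot be said what it limits. Median-of-ratios scaling, which divides the 4 °C column by 1.08 (0.11 in log2), left 212 higher and 91 lower genes, and quantile normalization 183 and 114; of the 235 genes, 212 and 182 were kept. Scaling thus narrowed the excess of higher genes, and higher genes outnumbered lower ones under each setting in which both were counted (with the most abundant transcript alone, 210 genes were higher and lower ones were not counted). Counts of higher and lower genes moved with the rule itself, to 86 and 23 at a fold of 20, to 154 and 53 with a pseudocount of 1 FPKM, to 356 and 137 with a floor of 0.5 FPKM, and to 68 and 30 with a floor of 5 FPKM; at a fold of 8 the lower count was 133. The share of all FPKM at 4 °C minus that at 23 °C, 1.86 percentage points as reported, was 1.72 after median-of-ratios scaling, 2.31 at a fold of 8, 0.95 at a fold of 20, 1.61 with the pseudocount, 2.14 and 1.15 with floors of 0.5 and 5 FPKM, 2.08 with no upper limit and 1.81 without homoeologous group 6. The D share of the genes was 43.0% at a fold of 20, and from 32.6% to 39.7% under the other settings. The share on 5BL was 0.541% at a fold of 20 and 0.715% with the floor of 5 FPKM; the shares over all arms were then 0.206% and 0.349%. After quantile normalization 0.433% of eligible A genes, 0.410% of B genes and 0.468% of D genes met the rule. After either scaling 6AS, with its few genes, had a higher share than 5BL. Another leading transcript was found in 16.2% of genes with the floor of 5 FPKM, and in 3.85% (3 of 78) where the leading one held at least 60% of the sum at each temperature, a rule that leaves out near ties. All transcripts above 0 were higher in 67.6% with the floor of 5 FPKM, and in 97.2% when only transcripts with a mean of at least 1 FPKM counted. Few lower transcripts of these genes pass that limit on the mean, so the 97.2% is largely set by it and by the rule. Quantile normalization and the leading transcript alone were not run for results that need transcript values or sums.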
